A study of Rattus norvegicus with 30 samples.

Results

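The 10 genes described here are those of cytotoxic and T helper 1 (Th1) lymphocytes: the granule genes *Prf1*, *Nkg7*, *Gzma*, *Gzmk* and *Gzmm*, the killer cell receptor gene *Klrd1*, the transcription factor gene *Tbx21*, the cytokine gene *Ifng* and the cytokine receptor genes *Il2rb* and *Il12rb1*. They were taken by symbol from the 32545 genes of the deposited count table, where each stands in 1 row, by a rule that uses no measured value but was written with earlier results of these data known. The mRNAseq data come from the right kidneys of male Sprague-Dawley (SD) rats, dissected into cortex (Cx) and outer medulla (OM). Control rats ate a 0.4% NaCl diet (LS), on which all rats started, and the other rats ate a 4.0% NaCl diet for 14 d (HS14) or 21 d (HS21). Each of the 6 groups of tissue and diet had 5 libraries, numbered 1 to 5 (LS), 6 to 10 (HS14) and 11 to 15 (HS21) in both tissues, which makes 30 libraries. Total counts on genes ran from 5408126 in OM HS14 replicate 10 to 21842843, with a next lowest total of 12748841. The distal tubule gene *Slc12a3* was at 978.7 CPM or more in each Cx library. It was at 50.6 CPM or less in each OM library but OM LS replicate 2, which had 353.6 CPM. The proximal tubule gene *Slc34a1* did not fully separate the tissues. It was at 4387 CPM in OM LS replicate 2, above the 4171 CPM of Cx HS21 replicate 11.

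Cytotoxic T cells and natural killer (NK) cells kill by releasing granules onto a target cell. Perforin, the product of *Prf1*, opens the target membrane, and granzymes are the proteases that then enter. The factor T-bet, encoded by *Tbx21*, turns on *Ifng* in Th1, cytotoxic and NK cells, and these cells receive interleukin-2 (IL-2), IL-15 and IL-12 through receptors that contain the chains encoded by *Il2rb* and *Il12rb1*. Whole tissue was sequenced, so more cells of a type and more RNA per cell cannot be told apart.

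After 21 d on the HS diet the genes were raised in Cx. Of the 8 that had enough counts to be tested there, 7 were raised against LS and 0 were lowered (edgeR quasi-likelihood test, adjusted *P* under 0.05), where 18.9% of the 14299 genes tested were raised. DESeq2's Wald test called 9 of 10 (17.6% of genes were raised). Their median log2 ratio was 2.27, against 0.0046 for all genes tested. The filter on low counts asks for enough counts in 5 of the 10 libraries, so the HS21 libraries alone can pass a gene. *Il12rb1*, with 1 to 9 counts in the Cx LS libraries, and *Gzmk*, with 5 to 15, passed it in this way. The 7 of 8 and this median include these genes. *Prf1* was the member that was tested and not called, and *Gzma* and *Ifng* were too low to test in this fit. At HS14 0 of 7 tested members were called in Cx (1.14% of genes were raised), and in OM 0 of 6 were called at HS14 (0.00694%) and 1 of 8 at HS21 (0.639%), so that the counts stand against unequal backgrounds. Levels are given in CPM, counts scaled to a common library size by TMM, in order of replicate number, and log2 ratios come from the edgeR fit with their SE.

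**Figure D1:**
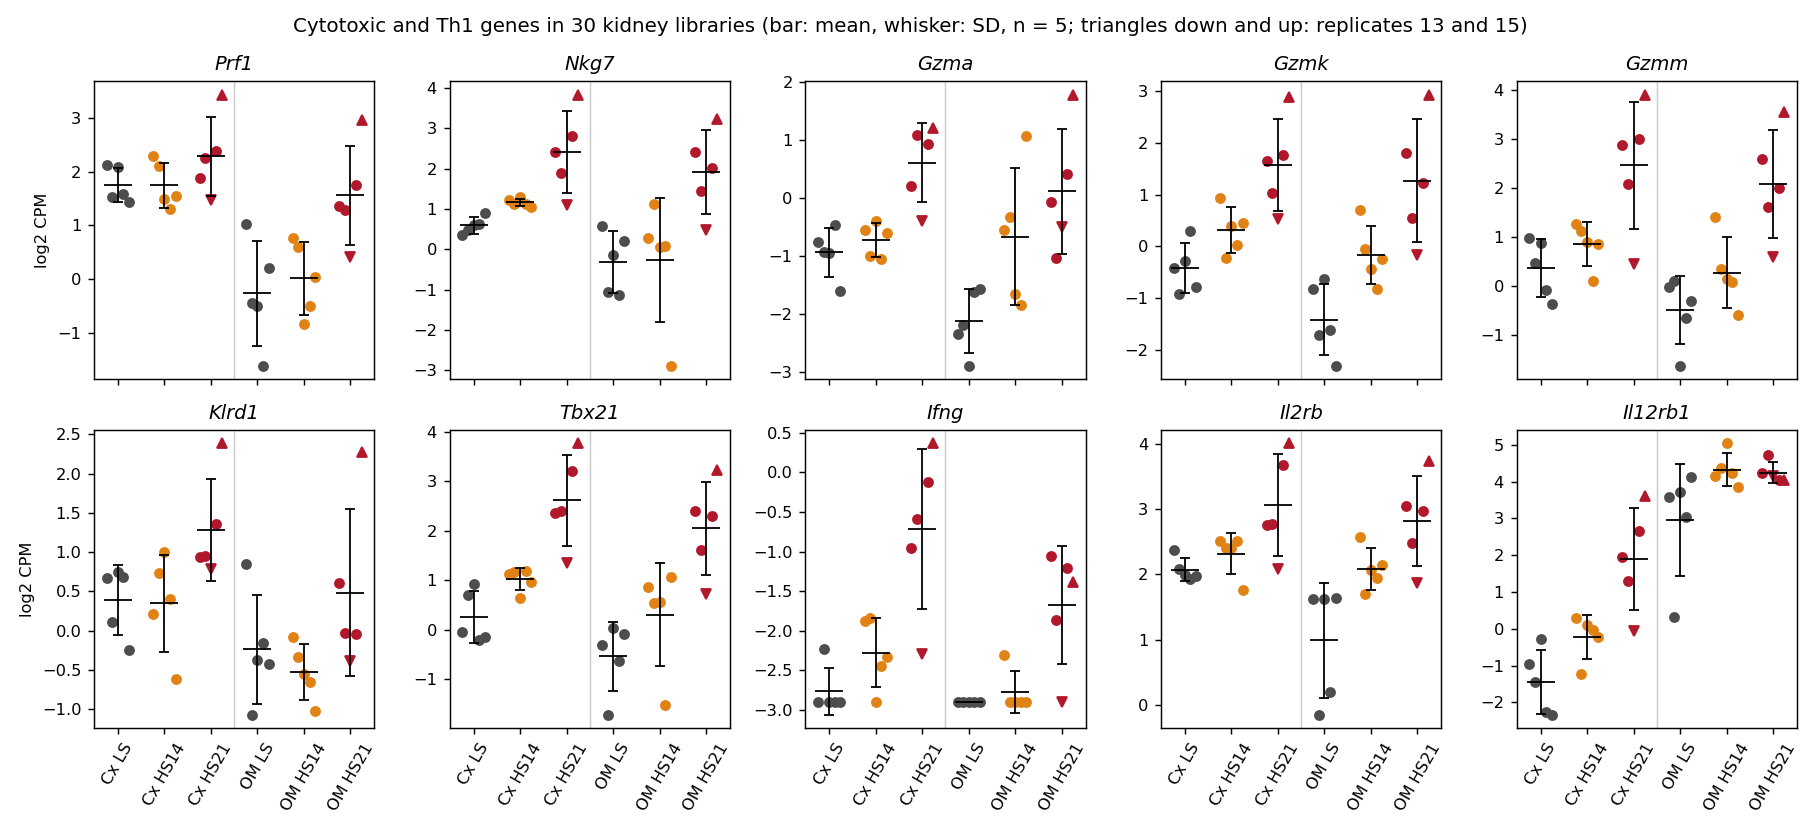
log2 CPM (prior count 2) of each of the 10 genes in the 30 libraries, by tissue and diet group. Each point is 1 library (triangles down and up are replicates 13 and 15), the bar is the mean and the whisker the SD (n = 5). In Cx HS21, replicate 15 was the highest and replicate 13 the lowest library for each of the 10 genes.

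**Figure D2:**
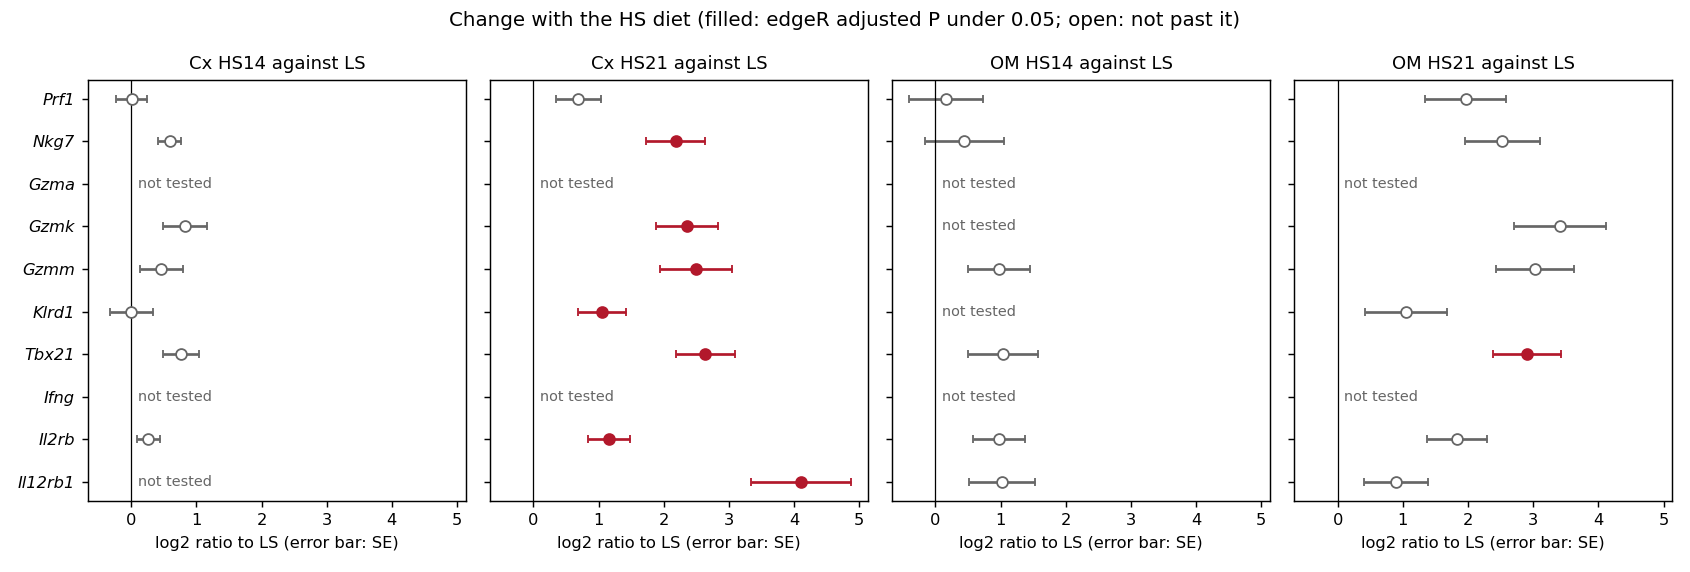
log2 ratio of each HS group to LS of the same tissue, with its SE, for the genes tested. Filled points passed an adjusted *P* of 0.05, which 7 genes did in Cx HS21 and 1 in OM HS21.

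*Nkg7* (ENSRNOG00000017749, Rnor_6.0 chromosome 1, 98492828 to 98493978) encodes a membrane protein of cytotoxic granules. In Cx it was at 1.15, 1.25, 1.39, 1.396 and 1.73 CPM on LS, at 2.19, 2.04, 2.30, 2.03 and 1.95 CPM at HS14 and at 5.21, 3.58, 2.003, 6.87 and 14.1 CPM at HS21. Each HS21 library lay above each LS library, and replicate 13 lay within the HS14 range. The log2 ratio of HS21 to LS was 2.19 (SE 0.45, edgeR adjusted *P* = 0.00276), a 4.55-fold level. The HS14 libraries also lay wholly above LS, which 2.71% of the genes tested in that comparison did, but the log2 ratio of 0.59 (SE 0.18) was not called (edgeR adjusted *P* = 0.103).

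*Gzmm* (ENSRNOG00000030530, chromosome 7, 12893432 to 12899004) and *Gzmk* (ENSRNOG00000010661, chromosome 2, 45068967 to 45077219) encode granzymes M and K. *Gzmm* was at 1.83, 1.25, 1.70, 0.808 and 0.642 CPM in Cx on LS and at 7.18, 4.12, 1.24, 7.91 and 14.8 CPM at HS21. The groups overlapped, because replicate 13 fell within the LS range, and the other 4 HS21 libraries stood above it. Its log2 ratio was 2.502 (SE 0.55, edgeR adjusted *P* = 0.00409), a 5.66-fold level. *Gzmk* was at 0.611, 0.392, 0.694, 1.10 and 0.449 CPM on LS and at 2.99, 1.93, 1.31, 3.27 and 7.27 CPM at HS21. Here no HS21 library reached down to the LS range, and the log2 ratio was 2.35 (SE 0.47, edgeR adjusted *P* = 0.0024), a 5.11-fold level.

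*Gzma* (ENSRNOG00000010603, chromosome 2, 44968765 to 44981458), the gene of granzyme A, was removed by the filter on low counts in each comparison between diets. In Cx it was at 0.459, 0.392, 0.385, 0.588 and 0.193 CPM on LS and at 1.02, 1.99, 0.622, 1.76 and 2.17 CPM at HS21. The HS21 libraries lay wholly above LS (two-sided exact permutation test, *P* = 0.00794, the smallest that 5 against 5 libraries allow, unadjusted). This test was run for the 10 genes in 6 comparisons between diets, and 41 of the 60 gave a *P* under 0.05 before any adjustment. It was not run for other genes, so this count has no background share beside it. The comparisons share groups and the members share libraries, so the 60 tests are not independent. In the fit without the filter its log2 ratio was 1.89 (edgeR adjusted *P* = 0.00395).

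*Prf1* (ENSRNOG00000000562, chromosome 20, 30915213 to 30921382) had the smallest log2 ratio of the granule genes tested in Cx at HS21. There it was at 4.20, 2.74, 4.08, 2.87 and 2.57 CPM on LS, at 4.73, 4.15, 2.67, 2.33 and 2.79 CPM at HS14 and at 3.56, 4.65, 2.62, 5.10 and 10.7 CPM at HS21. The 3 groups overlapped, and replicate 15 alone was far above the LS range. The log2 ratio at HS21 was 0.69 (SE 0.34, edgeR adjusted *P* = 0.131), and without replicate 15 it was 0.29. Within a library, the ratio of *Prf1* to *Nkg7* CPM had a median of 2.19 (1.48 to 3.67) in Cx LS, of 1.43 (1.15 to 2.16) in Cx HS14 and of 0.755 (0.683 to 1.31) in Cx HS21. The ratio of *Prf1* to *Gzmm* in Cx had a median of 2.41 (2.19 to 4.00) on LS, of 2.04 (1.54 to 2.47) at HS14 and of 0.72 (0.496 to 2.11) at HS21. Both ratios were lower in each of the 5 HS21 libraries than in any LS library, and at HS14 both overlapped LS. The pairs were chosen with the levels known. *Nkg7* and *Gzmm* were called as raised and *Prf1* was not, so the lower ratios restate those fits. They are a description with no test, and no share of other gene pairs was counted. In OM the ratios overlapped between the diets, with *Prf1* to *Nkg7* at 0.6 to 1.75 on LS and 0.472 to 0.95 at HS21, and *Prf1* to *Gzmm* at 0.375 to 3.0 and 0.412 to 0.864.

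Promoter sequences were read for the granule genes because these 5 genes act in 1 process and share a cell type. RefSeq sequence of the build GRCr8, 250 bases before to 50 bases after the start, was at hand for 8 of the 10 genes and not for *Klrd1* and *Il2rb*. It was searched on both strands for 4 short motifs chosen with the levels known: TCACACC (T-box), TGTGGT (Runx), AGGAAG (ETS) and TTCNNNGAA (STAT). The Runx letters stood in the promoters of each of the 5 granule genes and in none of the other 3 genes read, and in 17.3% of the 33469 promoters of the table. The T-box letters stood in 2 of 8, *Gzmm* and *Gzmk*, and in 3.83% of all promoters. The ETS letters were found in 2 of 8 (34.5% of all) and the STAT letters in 1 of 8 (8.87%). A match is a string of letters and not a shown binding site. The stretches from 190 to 41 bases before the start are printed 5′ to 3′ on the gene's strand, with capitals for the matches, ACCACA for Runx and GGTGTGA for T-box, both as reverse complements. They lie at chr7:10667297-10667446 (minus strand) for *Gzmm*, chr2:46582056-46582205 (minus) for *Gzmk*, chr1:102981307-102981456 (plus) for *Nkg7*, chr2:46485737-46485886 (minus) for *Gzma* and chr20:29788850-29788999 (plus) for *Prf1*. GRCr8 is a later build than the Rnor_6.0 of the counts, so these positions and strands cannot be set beside those given above.
Gzmm: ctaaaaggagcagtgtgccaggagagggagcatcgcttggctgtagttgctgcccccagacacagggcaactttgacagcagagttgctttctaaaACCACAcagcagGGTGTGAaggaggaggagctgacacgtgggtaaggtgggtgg
Gzmk: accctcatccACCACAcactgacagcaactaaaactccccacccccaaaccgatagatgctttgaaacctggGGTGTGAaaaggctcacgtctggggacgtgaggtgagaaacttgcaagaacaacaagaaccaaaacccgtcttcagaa
Nkg7: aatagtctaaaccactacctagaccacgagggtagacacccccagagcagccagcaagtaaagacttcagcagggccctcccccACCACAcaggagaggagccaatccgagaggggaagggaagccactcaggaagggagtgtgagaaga
Gzma: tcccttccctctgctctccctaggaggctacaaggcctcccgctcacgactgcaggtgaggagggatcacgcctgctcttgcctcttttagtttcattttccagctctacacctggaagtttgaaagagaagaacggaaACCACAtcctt
Prf1: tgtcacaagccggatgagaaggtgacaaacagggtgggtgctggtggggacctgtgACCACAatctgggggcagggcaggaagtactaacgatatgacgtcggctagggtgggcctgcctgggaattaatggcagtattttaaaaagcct
In *Gzmm* the first letter of the Runx match is at −94 and that of the T-box match at −82 relative to the start. In *Gzmk* they are at −180 and −118, and the Runx match is at −106 in *Nkg7*, −51 in *Gzma* and −134 in *Prf1*.

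*Klrd1* (ENSRNOG00000060246, chromosome 4, 163358009 to 163369854) encodes CD94, a receptor subunit of NK cells and some cytotoxic T cells. In Cx it was at 1.45, 0.941, 1.54, 1.47 and 0.706 CPM on LS and at 1.78, 1.79, 1.59, 2.42 and 5.10 CPM at HS21. The HS21 libraries lay wholly above LS, replicates 11, 12 and 13 by a small margin. The log2 ratio was 1.05 (SE 0.37, edgeR adjusted *P* = 0.0392). The call rests on single libraries: it was lost in 6 of 10 fits with 1 library left out, those without Cx LS replicate 1, 2, 4 or 5 and those without Cx HS21 replicate 14 or 15, where the edgeR adjusted *P* was between 0.055 and 0.0912. Without replicate 15 the log2 ratio was 0.65. In the fit with no count filter the edgeR adjusted *P* was 0.0512.

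*Tbx21* (ENSRNOG00000009427, chromosome 10, 85032799 to 85049331) had the lowest adjusted *P* of the members in Cx at HS21. It was at 0.841, 1.49, 1.77, 0.735 and 0.770 CPM on LS, at 2.06, 2.11, 1.43, 2.13 and 1.82 CPM at HS14 and at 4.96, 5.11, 2.42, 9.09 and 13.5 CPM at HS21. The HS21 libraries lay wholly above both other groups, and *Tbx21* was the single member for which HS21 and HS14 did not overlap (3.56% of the genes tested lay wholly above in that comparison). Its log2 ratio was 2.64 at HS21 against LS (SE 0.45, edgeR adjusted *P* = 0.000955), a 6.24-fold level, and 0.77 at HS14 (SE 0.28, edgeR adjusted *P* = 0.177).

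*Ifng* (ENSRNOG00000007468, chromosome 7, 61337381 to 61341419), the gene of interferon gamma, was close to the limit of detection and is given as counts. The Cx libraries held 0, 1, 0, 0 and 0 counts on LS and 6, 8, 1, 12 and 17 counts at HS21. In OM they held 0 counts in each LS library and 6, 2, 0, 5 and 4 counts at HS21. Replicate 13 was again the HS21 library with the fewest counts, within the LS range in both tissues. The exact permutation test on log2 CPM gave *P* = 0.0159 in Cx and *P* = 0.0476 in OM (two-sided, unadjusted). No fold is given, since LS lay at or below 3 counts in all.

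*Il2rb* (ENSRNOG00000048636, chromosome 7, 119701251 to 119716238) encodes the beta chain shared by the IL-2 and IL-15 receptors. In Cx it was at 5.04, 4.08, 3.85, 3.67 and 3.79 CPM on LS and at 6.61, 6.70, 4.08, 12.6 and 15.9 CPM at HS21. Replicate 13 lay within the LS range and the other 4 HS21 libraries lay above it. The log2 ratio was 1.16 (SE 0.32, edgeR adjusted *P* = 0.0139).

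*Il12rb1* (ENSRNOG00000019216, chromosome 16, 20371338 to 20383337) encodes a chain of the IL-12 receptor. In Cx it was at 0.382, 0.235, 0.694, 0.0735 and 0.0642 CPM on LS, at 1.10, 0.291, 0.933, 0.842 and 0.715 CPM at HS14 and at 3.75, 2.32, 0.829, 6.21 and 11.96 CPM at HS21. The LS libraries held between 1 and 9 counts, and the HS21 libraries lay wholly above them. The gene passed the count filter through the HS21 libraries. At 4.11 its log2 ratio was the largest of the members tested in Cx at HS21 (SE 0.77, edgeR adjusted *P* = 0.00155). It was 4.70 without Cx LS replicate 3 and 3.51 without Cx HS21 replicate 15, and was called in each of the 10 fits.

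Between HS14 and HS21 in Cx, 5 of 8 tested members were raised (6.5% of all genes tested were), *Nkg7*, *Gzmk*, *Gzmm*, *Tbx21* and *Il12rb1*. The log2 ratios of these 5 ran from 1.53 for *Gzmk* (SE 0.44, edgeR adjusted *P* = 0.0374) to 2.68 for *Il12rb1* (SE 0.62, edgeR adjusted *P* = 0.0175). *Tbx21* was at 1.88 (SE 0.39, edgeR adjusted *P* = 0.0129). *Tbx21* and *Il12rb1* were called in each fit with 1 library left out, although *Il12rb1* fell to 2.07 without Cx HS21 replicate 15. *Nkg7* lost its call in 6 of 10 such fits (Cx HS14 replicate 6, 7, 8 or 9, Cx HS21 replicate 14 or 15), *Gzmk* in 6 (Cx HS14 replicate 7, 8 or 9, Cx HS21 replicate 11, 14 or 15) and *Gzmm* in 5 (Cx HS14 replicate 7, 8 or 9, Cx HS21 replicate 14 or 15). The count of members called was 2 without Cx HS21 replicate 14 or 15 and 7 without replicate 13. No share of all genes raised is given for these fits, so these counts have no background beside them. With DESeq2's Wald test the count was 8 of 10, where 9.25% of all genes were raised.

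At HS14 the changes in Cx were smaller. Of the 7 members tested 0 were called by edgeR (1.14% of genes were raised). At an unadjusted *P* under 0.05, 3 were raised (*Nkg7*, *Gzmk* and *Tbx21*), as were 1284 of all 14181 genes tested. DESeq2's Wald test called 0 of 9 (3.2% of genes were raised). The log2 ratios lay between 0.0028 for *Klrd1* and 0.82 for *Gzmk* (SE 0.34, edgeR adjusted *P* = 0.229), with a median of 0.46. *Nkg7* was the 1 gene of 10 whose HS14 libraries lay wholly above LS. *Prf1* and *Klrd1* had log2 ratios of 0.0060 (SE 0.24) and 0.0028 (SE 0.33), and their sign turned in fits with 1 library left out.

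**Figure D3:**
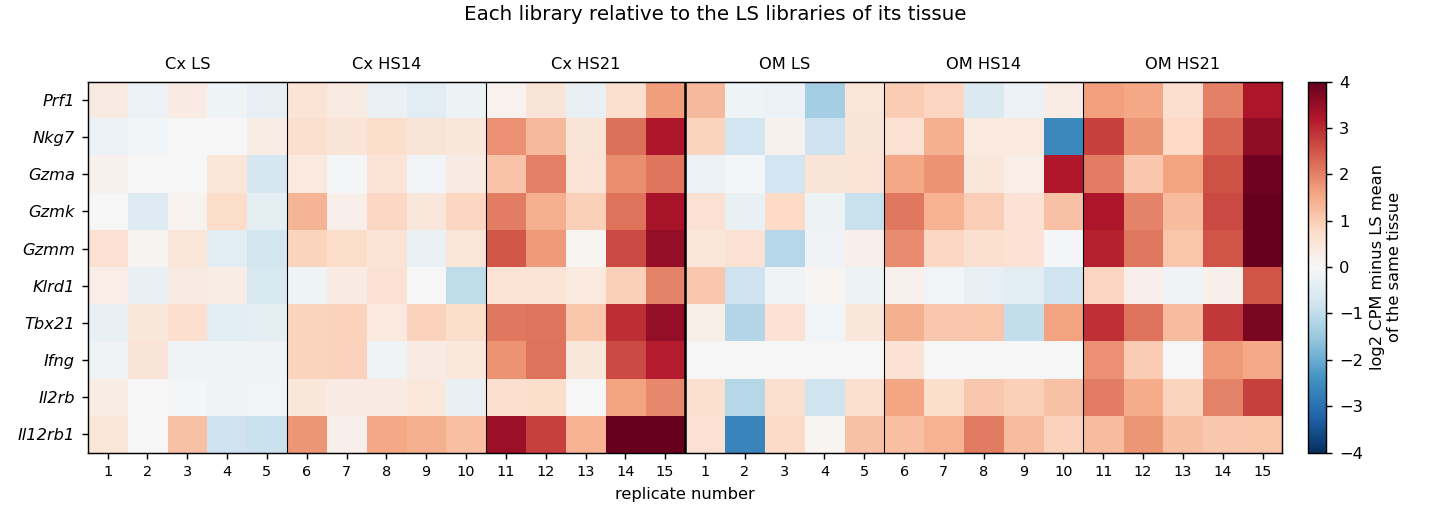
log2 CPM of each gene in each of the 30 libraries minus the mean of the 5 LS libraries of the same tissue. Red is above and blue below the LS mean, and the darkest colours stand for 4 or more. The 5 HS21 libraries of each tissue differ from each other. In OM at HS21 the rows of *Klrd1*, *Ifng* and *Il12rb1* have the lowest means, at 0.722, 1.21 and 1.29.

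In OM the ranges of the granule genes at HS21 overlapped those in Cx. *Nkg7* was at 1.35, 0.342, 0.763, 0.318 and 1.02 CPM on LS and at 5.16, 2.59, 1.26, 3.89 and 9.24 CPM at HS21. *Gzmm* was at 0.861, 0.940, 0.191, 0.508 and 0.677 CPM on LS and at 5.92, 2.94, 1.39, 3.89 and 11.6 CPM at HS21. *Tbx21* was at 0.676, 0.171, 0.890, 0.508 and 0.812 CPM on LS and at 5.11, 2.94, 1.51, 4.79 and 9.18 CPM at HS21. For *Gzmm* and *Tbx21* the HS21 libraries lay wholly above LS, and for *Nkg7* replicate 13 overlapped with it. *Tbx21* was the member called in OM at HS21 (0.639% of genes were raised), with a log2 ratio of 2.91 (SE 0.52, edgeR adjusted *P* = 0.0392).

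The other 7 members tested in OM at HS21 had positive log2 ratios that were not called. They were 3.41 for *Gzmk* (SE 0.71, edgeR adjusted *P* = 0.0653), 3.03 for *Gzmm* (SE 0.60, edgeR adjusted *P* = 0.0552), 2.53 for *Nkg7* (SE 0.58, edgeR adjusted *P* = 0.0805) and 1.96 for *Prf1* (SE 0.62, edgeR adjusted *P* = 0.194). *Il2rb* was at 1.83 (SE 0.46, edgeR adjusted *P* = 0.111), *Klrd1* at 1.05 and *Il12rb1* at 0.89. Without OM HS21 replicate 15, *Klrd1* was at 0.19 and *Gzmk* at 2.75. *Gzmk* passed the count filter in OM through its HS21 libraries, with 1 to 8 counts on LS. The median of the 8 was 2.24, against −0.031 for all genes tested. *Tbx21* lost its call in 9 of 10 fits with 1 library left out, the exception being the fit without OM HS21 replicate 13, in which *Nkg7*, *Gzmk* and *Gzmm* were called as well. DESeq2's Wald test called 7 of 9 (3.23% of genes were raised), edgeR with all 15 libraries of the tissue 4, and edgeR on total counts 0. For the edgeR fits on all 15 libraries, on total counts or with 1 library left out, no share of all genes is given. Those counts thus have no background beside them. Of the 10 genes, 5 had HS21 libraries wholly above LS (*Gzma*, *Gzmk*, *Gzmm*, *Tbx21* and *Il2rb*), which 2.44% of the genes tested did, against 6 of 10 in Cx and 12% of genes there. At HS14 in OM edgeR called 0 of 6 members (0.00694% of genes were raised), and DESeq2 called 0 of 9 (0.571%). At an unadjusted *P* under 0.05 edgeR had 1 raised (*Il2rb*, 0.97, SE 0.40), as were 617 of all 14417 genes tested. Between HS14 and HS21 in OM edgeR called 0 of 8 (0% of genes were raised), and DESeq2 called 0 of 10 (0.0833%). At an unadjusted *P* under 0.05 edgeR had 7 of these 8 raised, as were 337 of all 14499 genes tested. There 0 of 10 genes had HS21 libraries wholly above HS14, as 0.414% of the genes tested did.

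*Klrd1* in OM was at 1.66, 0.342, 0.636, 0.762 and 0.609 CPM on LS and at 1.39, 0.840, 0.630, 0.838 and 4.71 CPM at HS21. Its groups overlapped, with replicate 15 alone above the LS range. *Prf1* in OM was at 1.91, 0.598, 0.573, 0.191 and 1.02 CPM on LS and at 2.44, 2.31, 1.20, 3.23 and 7.69 CPM at HS21, so that replicate 13 was the 1 HS21 library within the LS range. *Gzma* held 0.0615, 0.0854, 0, 0.191 and 0.203 CPM in OM on LS and 0.812, 0.350, 0.567, 1.20 and 3.29 CPM at HS21.

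For *Gzma* the HS21 libraries of OM lay wholly above LS, and the same held for the granzyme K and IL-2 receptor genes. *Gzmk* held 0.430, 0.171, 0.509, 0.191 and 0.0677 CPM on LS and 3.37, 1.33, 0.756, 2.21 and 7.50 CPM at HS21. *Il2rb* held 2.95, 0.769, 2.93, 1.02 and 2.98 CPM on LS, 5.83, 3.10, 4.07, 3.71 and 4.28 CPM at HS14 and 8.12, 5.46, 3.53, 7.72 and 13.1 CPM at HS21. *Il2rb* was the 1 member whose HS14 libraries in OM also lay wholly above LS, which 1.04% of the genes tested did.

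*Il12rb1* followed another pattern in OM. It was at 11.8, 1.11, 13.1, 8.07 and 17.3 CPM on LS, at 17.7, 20.4, 32.9, 18.6 and 14.5 CPM at HS14 and at 18.6, 26.2, 17.8, 16.4 and 16.5 CPM at HS21. Except in OM LS replicate 2, the LS levels were above those of 4 of the 5 Cx HS21 libraries, and the HS14 and HS21 groups overlapped. Over the 15 libraries of a tissue its log2 CPM had a Pearson *r* of 0.947 with the mean of the other members in Cx and of 0.434 in OM, where the other 9 genes ranged from 0.697 to 0.926. These values are descriptions over libraries that share diet groups. OM LS replicate 2, the library with the lowest *Il12rb1*, also had the highest proximal tubule *Slc34a1* of the OM libraries, 4387 CPM against 127.1 to 1466 CPM in the other 14, and the lowest thick ascending limb *Slc12a1*, 2316 CPM against 3330 to 9514 CPM. The part of this library's composition in the value was not tested. No other annotated gene overlapped *Il12rb1* or any other member.

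On the LS diet, 2 of 7 tested members differed between the tissues. Of the 14295 genes tested, 21.3% were raised and 19.5% lowered in OM, so this count does not set the members apart. *Il12rb1* was higher in OM by a log2 ratio of 5.13 (SE 0.77, edgeR adjusted *P* = 0.00047), a 35.1-fold level, where 21.3% of genes were raised in OM. It was 5.41 without OM LS replicate 2 and 5.72 without Cx LS replicate 3. *Prf1* was lower in OM by −1.93 (SE 0.45, edgeR adjusted *P* = 0.00652), a ratio of 0.263, where 19.5% of genes were lowered. The other 5 had log2 ratios from −0.98 for *Gzmm* (SE 0.42, edgeR adjusted *P* = 0.0898) to −0.58 for *Klrd1* (SE 0.40, edgeR adjusted *P* = 0.267). Without OM LS replicate 1, *Nkg7* and *Klrd1* were also called as lower in OM, and without OM LS replicate 5 *Il2rb* was. DESeq2's Wald test called 4 of 9, of which 3 were lower in OM (17.8% of genes were) and *Il12rb1* was higher (20.2% were).

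Whether the change from LS to HS21 differed between the tissues was tested as an interaction over the 20 libraries. edgeR called 0 of 9 members (0.665% of genes were called in either direction). At an unadjusted *P* under 0.05, 1 member passed, and of all 15194 genes tested 1001 were raised and 1366 lowered. The member was *Il12rb1*, whose change was smaller in OM by −3.22 (SE 0.97, edgeR adjusted *P* = 0.127). DESeq2's Wald test called it (adjusted *P* = 0.0212, with 1.35% of genes lowered), and so did edgeR without OM LS replicate 2 (−3.49, adjusted *P* = 0.0162). For *Prf1* the interaction was 1.26 (SE 0.71, edgeR adjusted *P* = 0.405), for *Gzmk* 1.05 (SE 0.87, edgeR adjusted *P* = 0.59) and for *Tbx21* 0.26 (SE 0.70, edgeR adjusted *P* = 0.891). The SE of the interaction lay between 0.57 and 0.98 over the 9 members, which limits what could be detected. At HS14 edgeR called 0 of 8 (0% of genes were called), and DESeq2 called 0 of 9 (0.0327% of genes were raised and 0.0109% lowered). At an unadjusted *P* under 0.05 edgeR had 0 members, and of all 15091 genes tested 281 were raised and 278 lowered.

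The HS21 libraries differed among themselves, with the same library at each end for most members. In Cx, replicate 15 was the highest of the 5 HS21 libraries in 10 of 10 genes and replicate 13 the lowest in 10 of 10. In OM, replicate 15 was the highest in 8 of 10 and replicate 13 the lowest in 8 of 10. The highest HS21 library held between 3.21 times (*Klrd1*) and 14.4 times (*Il12rb1*) the CPM of the lowest in Cx, *Ifng* left out. The T cell receptor gene *Cd3e* was at 3.75, 3.85, 1.52, 7.45 and 11.6 CPM in the same 5 Cx libraries, and the pan-leukocyte gene *Ptprc* at 74.7, 73.2, 40.1, 98.5 and 132.5 CPM. Their order was that of the members at both ends, with replicate 13 lowest and replicate 15 highest. The T cell marker *Cd8a* was at 6.67, 7.57, 4.21, 4.45 and 6.12 CPM in these Cx libraries. It was also lowest in replicate 13 but highest in replicate 12, so not each T cell marker kept the members' order. In OM HS21, *Ptprc* was at 83.6, 65.2, 43.2, 75.4 and 85.0 CPM. The part of leukocyte content in the members' values was not tested.

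**Figure D4:**
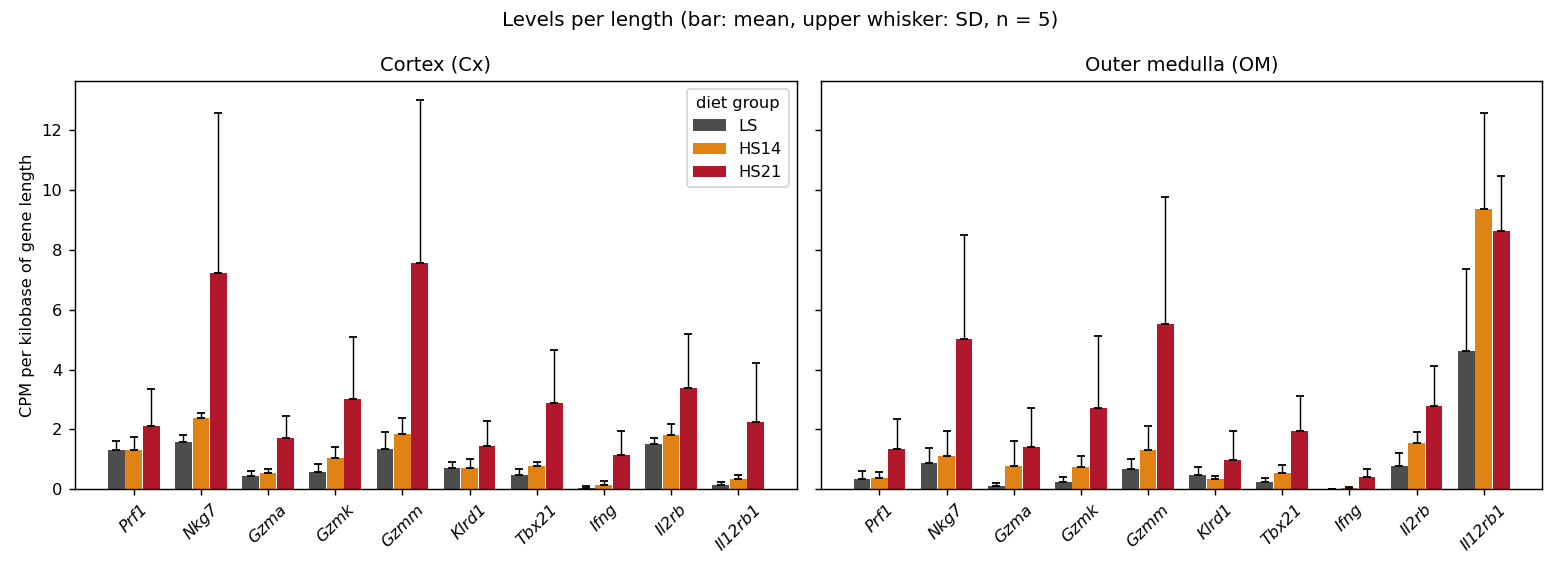
CPM per kilobase of gene length for each gene, by diet group, in Cx (left) and OM (right). Bars are means and upper whiskers the SD (n = 5). *Nkg7* and *Gzmm* are the highest members in Cx HS21, and *Il12rb1* is the highest in OM on each diet.

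Levels of different genes were compared per kilobase of gene length. In Cx on LS the order by mean was *Nkg7* (1.57 ± 0.251 CPM per kb, SD, n = 5), *Il2rb* (1.51 ± 0.204), *Gzmm* (1.34 ± 0.563) and *Prf1* (1.31 ± 0.312), which all overlapped. *Klrd1*, *Gzmk*, *Tbx21* and *Gzma* followed at 0.701 to 0.454, with *Il12rb1* at 0.131 and *Ifng* at 0.0307. At HS21 in Cx *Gzmm* (7.55 ± 5.45) and *Nkg7* (7.22 ± 5.35) came first and overlapped with each other, and *Prf1* came in place 7 at 2.11 ± 1.25. *Ifng* was last at 1.15 ± 0.806. In OM, *Il12rb1* was first on LS (4.63 ± 2.74) and at HS21 (8.63 ± 1.85), followed at HS21 by *Gzmm* (5.51 ± 4.24) and *Nkg7* (5.03 ± 3.47). In Cx the differences between neighbours were larger than both SDs on LS between *Prf1* and *Klrd1* and between *Gzma* and *Il12rb1*, and at HS21 between no neighbours. In OM on LS the difference between *Il12rb1* and the next gene, *Nkg7* (0.861 ± 0.504), was larger than both SDs.

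Other genes of the same pathways were read from lists written from general knowledge, given as counts beside the background of 18.9% raised and 20.5% lowered in Cx at HS21. Of 11 tested genes of granules and degranulation, 7 were raised and 1 lowered, with a median log2 ratio of 0.90. The protease gene *Ctsw* was at 3.16 (SE 0.52, edgeR adjusted *P* = 0.000748), the cystatin gene *Cst7* at 2.31 (SE 0.45) and *Unc13d*, whose product primes granules for release, at 1.23 (SE 0.22). The gene lowered was the lysosomal membrane gene *Lamp1*, at −0.33, named after its value was seen. *Gzmb*, which stands in 2 rows of the table, and *Gzmc* were too low to test, with at most 16 counts in a Cx HS21 or Cx LS library.

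Of 11 tested genes of other killer cell receptors and adaptors 8 were raised and 0 lowered, with a median of 1.47. The adaptor gene *Hcst* was at 2.53 (SE 0.33, edgeR adjusted *P* = 0.000167), the activating receptor gene *Cd226* at 2.28 (SE 0.35) and the Fc receptor gene *Fcgr3a* at 2.20 (SE 0.44). *Hcst* and *Fcgr3a* are also used by myeloid cells. The NK cell receptor genes *Ncr1* and *Klrb1c*, named after their values were seen, were at 0.45 (SE 0.27, edgeR adjusted *P* = 0.208) and −0.070 (SE 0.42, edgeR adjusted *P* = 0.912). Of 2 tested genes of death ligands and receptors *Fas* was raised at 0.79 (SE 0.24) and *Tnfsf10* was at 0.49 (edgeR adjusted *P* = 0.0891).

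Among other Th1 and effector transcription factors, 4 of 8 were raised and 1 was lowered (*Id2*, at −0.41, named after its value was seen), with a median of 0.63. *Irf1* was at 1.81 (SE 0.30) and *Runx3* at 1.31 (SE 0.32). In the IL-12, IL-18, IL-2 and IL-15 pathways 10 of 15 were raised and 0 lowered, with a median of 0.92. The IL-18 receptor genes *Il18rap* and *Il18r1* were at 3.40 (SE 0.50, edgeR adjusted *P* = 0.000364) and 1.56 (SE 0.26), and the common chain gene *Il2rg* at 1.43 (SE 0.20). The cytokine genes *Il2* and *Il12b* held at most 2 and 7 counts in any Cx HS21 library. *Il12rb2*, the partner of *Il12rb1* in the IL-12 receptor and named for that, was at 4.80 ± 0.671 CPM in Cx LS and 9.68 ± 1.42 CPM in Cx HS21 (SD, n = 5), a log2 ratio of 1.01 (SE 0.14, edgeR adjusted *P* = 0.000319).

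All 10 tested genes of the interferon gamma receptor and its targets were raised in Cx at HS21, with a median of 1.74. *Cxcl9*, a chemokine gene induced by interferon gamma, was at 4.43 (SE 0.87, edgeR adjusted *P* = 0.0021), *Socs1* at 2.27 (SE 0.53) and *Gbp2* at 2.16 (SE 0.44). Of 6 tested Th1 and effector chemokine and receptor genes 5 were raised, with a median of 2.54. The receptor genes *Cxcr6* and *Cxcr3* were at 3.39 (SE 0.56) and 3.01 (SE 0.67), and the ligand gene *Ccl5* at 3.19 (SE 0.58). T cell markers were raised in 11 of 11, with a median of 2.66 and *Cd3e* at 3.96 (SE 0.59, edgeR adjusted *P* = 0.000408).

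Markers of other cells moved with the members in Cx at HS21. General leukocyte markers were raised in 6 of 6 tested (median 1.89), macrophage markers in 9 of 9 (median 1.58) and neutrophil markers in 3 of 3 (median 1.93). Of the B cell markers 1 of 8 was high enough to test, *Cd22*, which was raised at 1.49 (SE 0.27). The summed CPM of the 7 general leukocyte markers was 104.8 to 151.3 in Cx LS and 201.2 to 569.8 in Cx HS21, and that of the 13 T cell markers 29.4 to 45.5 and 69.0 to 229.5. Of the lymph node and perirenal fat markers, the fat gene *Adipoq* was raised at 1.05 (SE 0.17), and the summed CPM of the list's 7 genes was 6.94 to 12.5 on LS and 17.6 to 28.1 at HS21. Proximal tubule markers were lowered in 4 of 4 (median −0.69) and thick ascending limb and distal tubule markers raised in 4 of 4 (median 0.75). The part of these in the members' changes was not tested.

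Genes of other T helper programmes were mostly too low to test. *Il4*, *Il5*, *Il13* and *Il17f* held 0 counts in each Cx LS and Cx HS21 library. *Il17a* and *Il22* held 0 in Cx LS and at most 2 and 1 in a Cx HS21 library. The Th17 receptor gene *Ccr6* was raised at 2.39 (SE 0.45, edgeR adjusted *P* = 0.00155) and the Th2 factor gene *Gata3*, which kidney epithelium also expresses, at 0.58 (SE 0.12, edgeR adjusted *P* = 0.00238). The 2 regulatory T cell genes tested, *Tnfrsf18* and *Ikzf2*, were at 1.14 (SE 0.52, edgeR adjusted *P* = 0.105) and 0.38 (SE 0.72, edgeR adjusted *P* = 0.709). Proliferation genes were lowered in 4 of 5, with *Mki67* at −1.04 (SE 0.14).

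**Figure D5:**
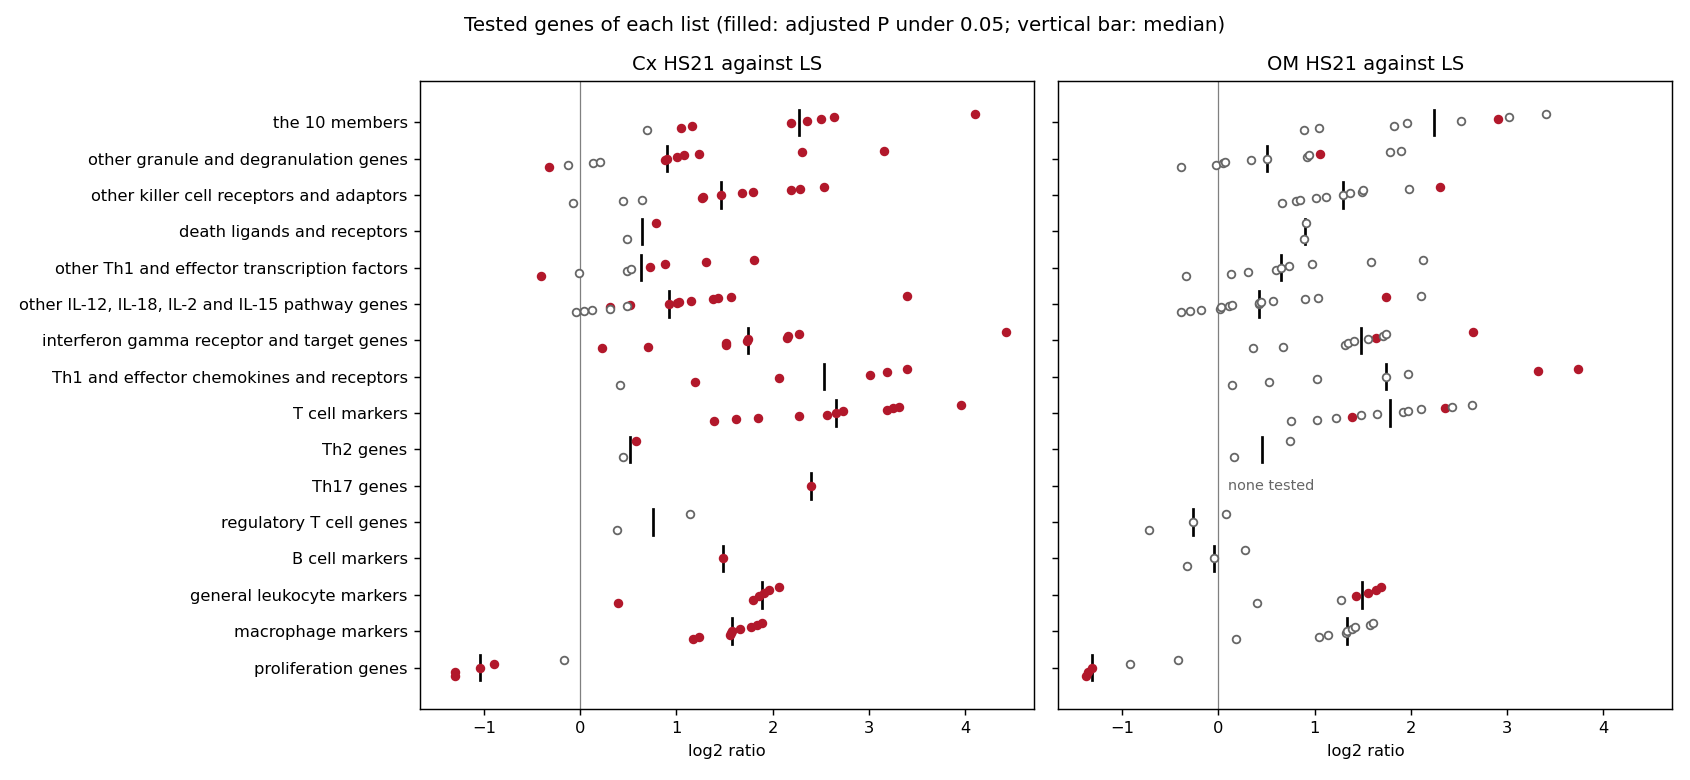
log2 ratio of HS21 to LS of each tested gene of the lists, in Cx (left) and OM (right). Filled points passed an adjusted *P* of 0.05 and vertical bars are medians. The medians of the members were 2.27 in Cx and 2.24 in OM, where most points are open.

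In OM at HS21 fewer of the listed genes were called, where 0.639% of all genes tested were raised. T cell markers were raised in 2 of 12 tested (median 1.78), general leukocyte markers in 4 of 6 (1.49), macrophage markers in 0 of 9 (1.34), interferon gamma targets in 2 of 10 (1.49) and chemokine genes in 2 of 7 (1.74). *Ccl5* was at 3.74 (SE 0.66, edgeR adjusted *P* = 0.0377), *Cxcr6* at 3.32 (SE 0.49, edgeR adjusted *P* = 0.0279) and *Cxcl9* at 2.65 (SE 0.48, edgeR adjusted *P* = 0.0405). Other granule genes, killer cell receptors and cytokine pathway genes had 1 of 11, 1 of 11 and 1 of 15 raised, with medians of 0.51, 1.29 and 0.42.

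The genes with a pattern most like the members were sought over the 15 Cx libraries among 13839 genes, by Pearson's *r* with the mean log2 CPM of the 9 members with a mean of at least 0.5 CPM. They were *Psmb9* (*r* = 0.989), *Gimap4* (0.985), *Cd37* (0.983), *Tap1* (0.982), *Ccl5* (0.981) and *Ifitm1* (0.981), given as descriptions. Over the 15 OM libraries the same genes had an *r* of 0.849, 0.928, 0.892, 0.932, 0.92 and 0.638. *Psmb9*, an immunoproteasome subunit gene, went from 12.01 ± 1.64 CPM in Cx LS to 54.4 ± 31.4 CPM in Cx HS21 (SD, n = 5), and *Tap1*, the gene of a peptide transporter for antigen presentation, from 19.7 ± 2.26 to 82.3 ± 54.3 CPM. By Spearman's rho 1 of the first 6 genes was the same.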

How the data were processed

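Poly(A) mRNA of 30 kidney samples was sequenced with a kit that does not keep strand. Raw counts per gene were deposited by the authors, who aligned reads to Rnor_6.0 (Ensembl annotation) with HISAT2 2.0.5 and counted with featureCounts 1.5.0-p3, and StringTie 1.3.3b is named per the labels. The 30 FPKM columns and the 35 columns of group means, fold changes and *P* values of the authors' own comparisons were not used.

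Each comparison was fitted on the counts of its own 10 or 20 libraries in R 4.3.3 with edgeR 4.0.16 (limma 3.58.1), with genes filtered by filterByExpr, TMM scaling, glmQLFit and glmQLFTest, and Benjamini-Hochberg adjustment over all genes tested. A gene was called at an adjusted *P* under 0.05. The alternative fits were DESeq2 1.42.0 (Wald test), other scalings, no filter, all libraries of a tissue, and each library left out. The fits were also run on simulated counts of independent libraries. These counts held no tissue difference beyond the changes put in and no pairing of libraries, so they do not cover such a design. CPM used TMM factors over the 30 libraries. For log2 values a prior count of 2 was added. Exact permutation tests of 5 against 5 libraries (252 regroupings) were run on log2 CPM with Python 3.11.15 and scipy 1.17.1. Total counts per library limit the precision of genes at few counts.

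The study used separate rats per diet group. The labels do not say whether libraries of Cx and OM with the same number came from 1 rat. The members and gene lists were chosen with earlier results of these data known. All 10 members were named. Of each list up to 3 tested genes, called or not, were named by the size of their log2 ratio in Cx HS21 against LS. Of genes with a like pattern the first 6 were named. Some genes that this rule names are not reported here.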

Additional observations from a re-analysis of the deposited data

Results flagged for a closer look

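Of 55 groups of 5 libraries in which a member had enough counts, 5 held a library far from the other 4, measured as the gap to the nearest library divided by the range of the group (limit 0.71). Chance flags about 1 in 20 groups. *Nkg7* was lowest in OM HS14 replicate 10, at a log2 CPM of −2.89 with the next at 0.065 (gap 0.738 of the range). That library had the lowest total count, 5408126, and the smallest exonic share reported in the paper. *Tbx21* was lowest in OM HS14 replicate 9, at −1.52 with the next at 0.53 (gap 0.793). *Il2rb* was lowest in Cx HS14 replicate 10, at 1.76 with the next at 2.41 (gap 0.864). *Il12rb1* was lowest in OM LS replicate 2, at 0.32 with the next at 3.04 (gap 0.715), and highest in OM HS21 replicate 12, at 4.72 with the next at 4.23 (gap 0.73).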

How the results depend on the processing

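Of the alternatives compared with the values given, 434 kept their direction and side of the threshold, 16 passed it newly, 7 lost it, 10 changed sign and 1 moved, counting of the fits with a library left out the lowest and the highest ratio of each gene. Over all 726 such gene values, 32 lost a call, 8 gained one and 24 changed sign. The counts of members called come next. Shares of all genes are given above for the main and DESeq2 fits only, so the other counts in this section have no background beside them. With DESeq2's Wald test the members called were 8 for Cx HS21 against HS14, 7 for OM HS21 against LS, 4 for OM against Cx on LS and 1 for the interaction at HS21. For OM HS21 against LS, total counts gave 0 and all 15 libraries of the tissue 4. With each library left out in turn, the counts ran from 6 to 8 for Cx HS21 against LS, 2 to 7 for Cx HS21 against HS14, 0 to 4 for OM HS21 against LS, 2 to 4 for OM against Cx on LS and 0 to 1 for the interaction at HS21. The leave-one-out fits of the interaction at HS14 were not run.

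Signs changed only for ratios that were not called. With a library left out, *Prf1* ran from −0.15 to 0.12 and *Klrd1* from −0.20 to 0.19 in Cx HS14, *Prf1* from −0.087 to 0.70 in OM HS14 and *Il12rb1* from −0.27 to 0.098 in OM HS21 against HS14. The interaction at HS21 ran from −0.13 to 0.85 for *Nkg7*, −0.021 to 0.98 for *Gzmm*, −0.13 to 0.64 for *Tbx21* and −0.86 to 0.44 for *Klrd1*, and that of *Klrd1* was 0.0066 with DESeq2 size factors and 0.018 with its Wald test. The cause was not tested.

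Total-count scaling moved the median log2 ratio of all genes to 0.13 in Cx HS21 against LS, 0.13 against HS14, 0.27 for OM against Cx on LS and −0.16 for the interaction at HS21. With the replicate number as a block, 2 members were called for OM against Cx on LS and 0 for each interaction. Deviations of Cx and OM libraries with the same number had an *r* of −0.0709 to 0.439 over 15 pairs, above 0.1 in 10, and 13 of 15 correlated best with their own number, among them the 5 at HS21 (0.238 to 0.439). This is a hint of pairing from the data. Neither the labels nor the methods state it and not each pair passed 0.1, so the values given are from fits without the block, which changed no call. *Gzma* and *Ifng* were too low to test between diets, and depth limits what these counts can show.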
